A study of Mus musculus with 21 samples.

Results

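The genes described here are 9 structural genes of central nervous system myelin, namely Mbp, Mobp, Mal, Cldn11, Cnp, Mag, Mog, Opalin and Ermn. They were chosen by symbol, each matched 1 row of the count table, and they are 9 of 64361 genes in that table. They were measured by prime-seq, a bulk RNA-seq method that counts the 3′ ends of transcripts, in cortex and hippocampus of GA-Camk2a mice and controls. GA-Camk2a mice carry a GFP-tagged poly-GA transgene, a dipeptide repeat protein made from the expanded C9orf72 repeat, behind a floxed stop cassette that Camk2a-Cre removes in excitatory neurons. The labels call the other group ctrl and do not say which of these alleles it carried. The line was kept on C57BL/6J and the GA-Camk2a mice came from a small number of litters. All mice were killed at 30 to 40 weeks of age. The 21 libraries come from 5 control and 6 GA-Camk2a mice. Cortex was sequenced from 5 controls and 6 GA-Camk2a mice, and hippocampus from 4 controls and 6 GA-Camk2a mice, so that 10 mice gave both tissues. These numbers follow the labels, while the study's text assigns the control numbers to the tissues the other way round.

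Myelin is the stack of oligodendrocyte membrane wound around axons. Mbp holds the cytoplasmic faces of compact myelin together, and Mobp is a further small basic protein of the same compartment. Cldn11 forms the tight junctions that run through the sheath, Mal is a small proteolipid of glycolipid-rich membrane, and Cnp is a cyclic nucleotide phosphodiesterase that keeps the cytoplasmic channels of the sheath open. Mag lies on the innermost layer, facing the axon, and Mog on the outermost. Opalin and Ermn, a transmembrane and a cytoskeletal protein, mark mature oligodendrocytes. Oligodendrocytes express these genes, whereas the transgene is driven in neurons.

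Total counts per library were between 1048201 and 5888102. The 9 genes together took 0.134% to 0.237% of the counts of a library, and the lowest count of any of them in any library was 47, for Ermn. The GFP row held at most 4 counts in a library and was above 0 in 2 control cortices, so it did not check the genotype labels. A list of hippocampal markers summed to 731 ± 67.2 CPM (counts per 1e+06 counts of the library, SD, n = 4) in control hippocampus and to 182 ± 24.2 CPM (n = 5) in control cortex. A list of 12 oligodendrocyte markers that holds none of the 9 genes was detected in every group. In bulk tissue, fewer cells of a type and less RNA per cell cannot be told apart. CPM are relative to the counts of the whole library and are not scaled to transcript length, so levels are compared between groups and not between genes.

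The upstream sequences of Cldn11 and Cnp are shown because these were the genes that passed the test between genotypes, and that of Mobp because it was the gene that passed between tissues. They are RefSeq windows on GRCm38.p6, begin 250 bases before the annotated start, run 5′ to 3′ on the plus strand and stop before the first base that GENCODE places in an exon. Matches to 6 short motifs on either strand are in capitals.
Cldn11, chr3:31149670-31149919: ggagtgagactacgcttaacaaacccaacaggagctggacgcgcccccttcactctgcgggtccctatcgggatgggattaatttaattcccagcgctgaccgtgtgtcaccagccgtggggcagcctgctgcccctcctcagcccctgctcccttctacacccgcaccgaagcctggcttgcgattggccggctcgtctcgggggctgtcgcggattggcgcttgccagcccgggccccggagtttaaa
Cnp, chr11:100574689-100574903: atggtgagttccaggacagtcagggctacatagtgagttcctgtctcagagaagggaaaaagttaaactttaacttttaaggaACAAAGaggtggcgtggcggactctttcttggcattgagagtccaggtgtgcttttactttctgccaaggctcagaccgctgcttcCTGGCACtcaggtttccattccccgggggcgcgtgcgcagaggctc
Mobp, chr9:120149492-120149706: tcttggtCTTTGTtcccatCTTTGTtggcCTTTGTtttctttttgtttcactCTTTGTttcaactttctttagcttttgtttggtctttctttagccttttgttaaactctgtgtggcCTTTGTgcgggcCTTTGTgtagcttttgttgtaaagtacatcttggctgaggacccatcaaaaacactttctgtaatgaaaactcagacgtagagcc
The motifs were ACAAAG and ACAATG, cores read by SOX factors (the first also by TCF/LEF factors), CTGGCAC and CTGGTAC, which fit the motif of the myelin regulator MYRF, the E-box CAGCTG and the TATA box TATAAA. RefSeq windows were matched for 8 of the 9 genes, 10 windows in all. ACAAAG or its reverse complement was in 5 of these 10 windows, those of Cnp, Mag (2 windows), Mobp and Opalin, and in 16.5% of all 32851 windows of the same length. The Mobp stretch held it 6 times, as CTTTGT on the strand shown. CTGGCAC was in 3 of the 10 windows, those of Cnp and Mag, against 4.19% of all windows, and CTGGTAC was in the Mog window, against 1.83%. ACAATG was in the Ermn window, against 10.7%, and neither CAGCTG (13% of all windows) nor TATAAA (12.4%) was in any of the 10. The 2 Mag windows with matches overlap each other and share them, and a further Mag window overlaps neither and has no match. The window counts thus hold the Mag locus more than once. A match is a description of letters, not of a bound site.

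In cortex, Cnp and Cldn11 were higher in GA-Camk2a mice than in controls, and the other 7 genes did not pass the test. Between genotypes, 2 of the 9 genes passed (edgeR quasi-likelihood test with batch as a term, Benjamini-Hochberg adjusted p below 0.05 over all genes), against 12.5% of all 13058 genes tested, so that the number of calls does not by itself set the members apart. Their log2 fold changes, given as GA-Camk2a over control throughout, were above 0 for 8 of 9 and had a median of 0.17, while the median over all genes was −0.01. Summed, the 9 genes reached 1523 ± 84.1 CPM in control cortex (n = 5) and 1754 ± 151 CPM in GA-Camk2a cortex (n = 6).

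Cnp, the phosphodiesterase of non-compact myelin, stood at 234, 243, 251, 266 and 273 CPM in the 5 control cortices and at 284, 297, 302, 304, 378 and 380 CPM in the 6 GA-Camk2a cortices. All 6 GA-Camk2a libraries lay above every control, a separation that 3.5% of all genes showed in the same direction. The difference was 0.35 ± 0.09 on the log2 scale (SE, 1.28-fold, adjusted p = 0.0135, edgeR), and it passed in each of the 11 fits that left out 1 library. It did not pass without a filter on low counts or in batch 1 or batch 2 alone (adjusted p of 0.0541, 0.0699 and 0.480, edgeR). An exon of Dnajc7 on the opposite strand overlaps Cnp, and whether the counting used strand is not given in the sources used here. Dnajc7 was at 76.0 CPM in control and 71.4 CPM in GA-Camk2a cortex (log2 difference −0.09 ± 0.13, adjusted p = 0.699, edgeR).

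Cldn11, the tight-junction claudin of the sheath, was at 94.7, 95.3, 113, 114 and 123 CPM in the control cortices and at 114, 119, 143, 153, 155 and 172 CPM in the GA-Camk2a cortices. The highest 4 GA-Camk2a libraries were above every control and the lowest 2 were within the control range. The log2 fold change was 0.41 ± 0.11 (1.33-fold, adjusted p = 0.0173, edgeR). Without control 37 or control 38 the adjusted p was 0.0512 or 0.0678, and it was 0.0547 after thinning all libraries to the smallest and 0.0825 and 0.386 in batch 1 and batch 2 alone.

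Ermn, a cytoskeletal protein of late oligodendrocytes, was at 44.8, 47.2, 54.6, 57.2 and 63.4 CPM in control cortex. In GA-Camk2a cortex it was at 61.2, 62.3, 64.7, 65.8, 69.6 and 78.0 CPM, with 4 of 6 libraries above every control. The log2 fold change of 0.30 ± 0.11 did not pass after adjustment (adjusted p = 0.0797, edgeR), except without control 38 (adjusted p = 0.0427). Mobp, at 446 ± 31.6 CPM in control and 519 ± 49.8 CPM in GA-Camk2a cortex, likewise had 4 of 6 libraries above every control. Its log2 fold change was 0.22 ± 0.09 (adjusted p = 0.105, edgeR), and it passed without GA-Camk2a mouse 30 (adjusted p = 0.0414).

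For the remaining 5 genes the 2 genotypes overlapped in cortex and the 95% interval of each difference included 0. Mag, the adhesion protein of the inner layer, had a log2 fold change of 0.17 (interval −0.05 to 0.38). Opalin had 0.15 (−0.14 to 0.43), Mal 0.14 (−0.05 to 0.33) and Mog, the outer-layer protein, 0.03 (−0.28 to 0.35). Mbp was at 301 ± 40.2 CPM in controls and 302 ± 38.2 CPM in GA-Camk2a mice, a log2 difference of −0.01 ± 0.09. Its interval of −0.191 to 0.180 overlaps the lower ends of the intervals of Cnp (0.161) and Cldn11 (0.177). Differences between genes were not tested.

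**Figure D1:**
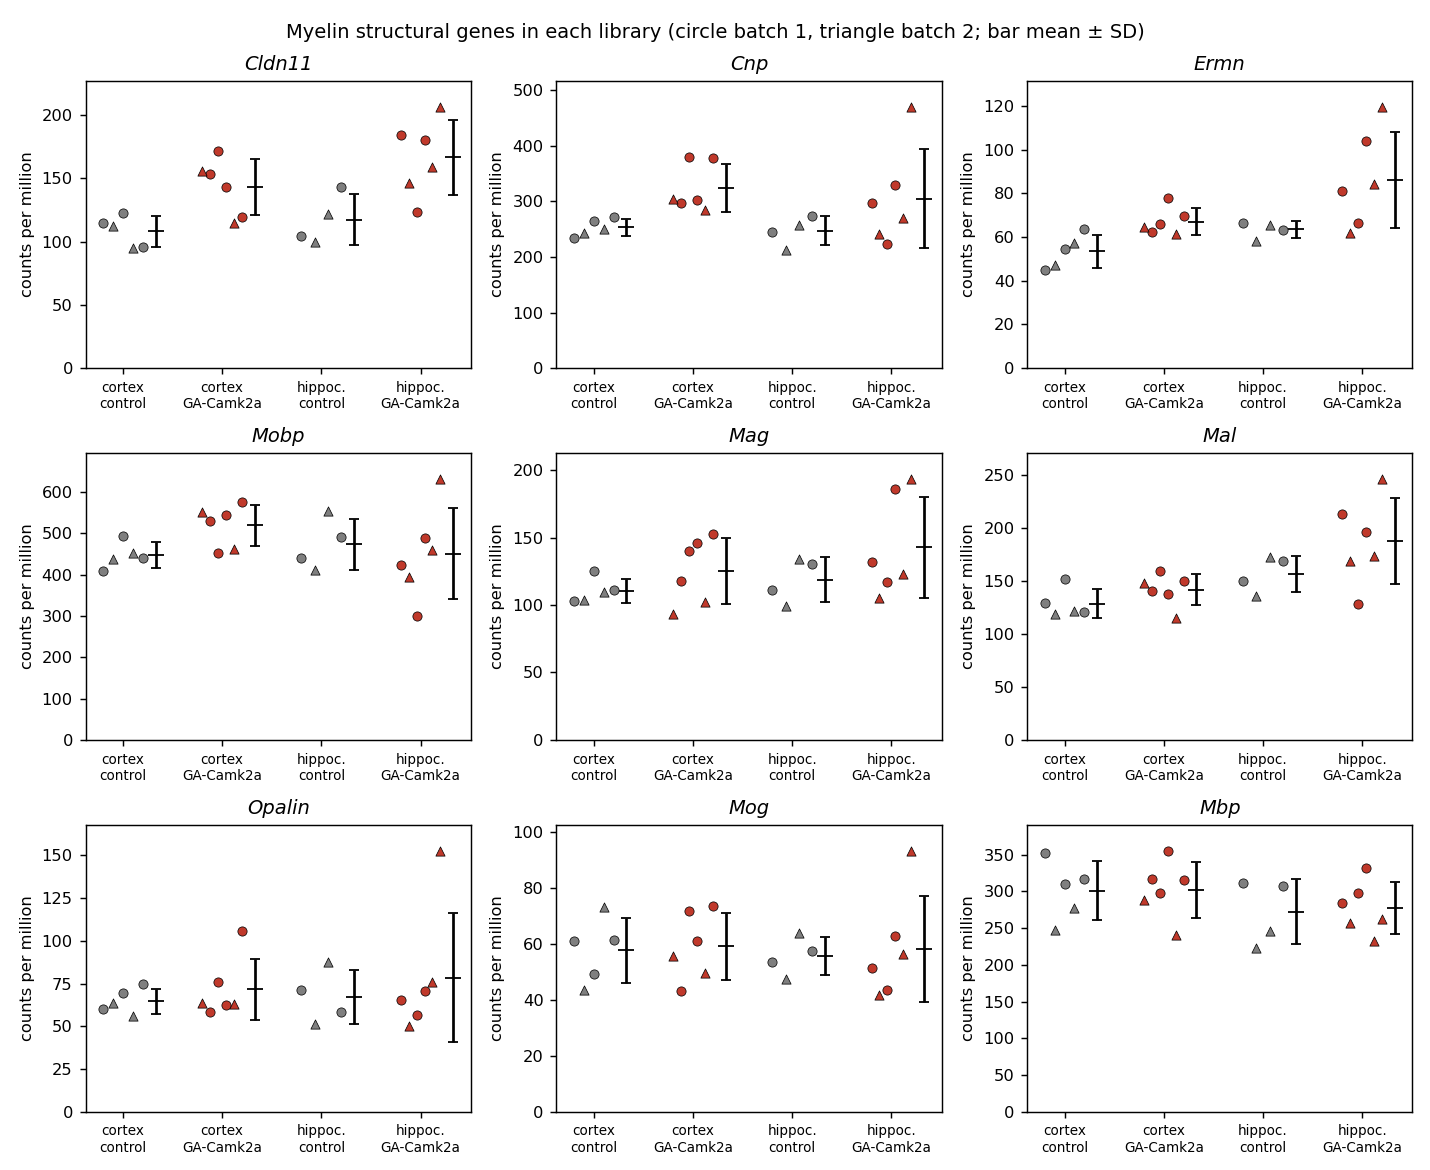
CPM (linear axis from 0) of each gene in every library, by tissue and genotype, with circles for batch 1, triangles for batch 2 and black bars for the mean and SD of 4 to 6 libraries. In the Cnp panel all 6 GA-Camk2a cortices lie above the 5 controls, and in 8 of the 9 panels the highest value of the series is hippocampus of GA-Camk2a mouse 41.

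In hippocampus, Cldn11 was higher in GA-Camk2a mice and no other member passed, so 1 of 9 genes was called against 10.9% of all 14884 genes tested. Log2 fold changes were above 0 for 7 of 9 genes with a median of 0.21, against 0.02 over all genes. The spread was wider than in cortex: the coefficient of variation of the 9 genes within GA-Camk2a hippocampus was 12.6% to 47.8% (median 25.6%), and within GA-Camk2a cortex 9.18% to 25% (median 13.3%). Part of this spread came from mouse 41. The SD of the 9 genes summed was 368 CPM in GA-Camk2a hippocampus (n = 6), 231 CPM without that mouse (n = 5) and 151 CPM in GA-Camk2a cortex (n = 6).

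Cldn11 was at 99.4, 105, 122 and 143 CPM in the 4 control hippocampi and at 123, 146, 159, 180, 184 and 206 CPM in the 6 GA-Camk2a hippocampi. GA-Camk2a mouse 30 lay within the control range and the other 5 lay above it. The log2 fold change was 0.46 ± 0.14 (1.38-fold, adjusted p = 0.0437, edgeR). The call was lost without any 1 of controls 11, 20 and 31 or of GA-Camk2a mice 16, 34, 35 and 41 (adjusted p of 0.0661 to 0.184), with the log2 fold change between 0.38 and 0.59 over all 10 such fits. Without the batch term the adjusted p was 0.0506, and in batch 1 alone it was 0.571. Cldn11 was the only member called in both tissues, and the difference between its tissue effects was 0.03 ± 0.18 on the log2 scale (interval −0.34 to 0.41).

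Ermn was at 58.3, 63.4, 65.5 and 66.6 CPM in control hippocampus and at 61.7, 66.6, 81.2, 84.2, 104 and 119 CPM in GA-Camk2a hippocampus. Its log2 fold change of 0.40 ± 0.15 was of the size found for Cldn11 but did not pass (adjusted p = 0.105, edgeR), except without GA-Camk2a mouse 23 (adjusted p = 0.0365). Cnp, called in cortex, was at 213, 245, 257 and 274 CPM in control hippocampus and at 224, 241, 270, 296, 330 and 470 CPM in GA-Camk2a hippocampus. The groups overlapped, and the log2 fold change was 0.25 ± 0.16 (interval −0.09 to 0.59, adjusted p = 0.355, edgeR). Its interaction of genotype and tissue, −0.12 ± 0.19, was not called, so the Cnp differences of the 2 tissues were not shown to differ.

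Mag (0.22 ± 0.16), Mal (0.21 ± 0.14) and Opalin (0.18 ± 0.23) had log2 fold changes above 0 in hippocampus without passing, and Mog (0.02 ± 0.17) and Mbp (−0.01 ± 0.07) had values near 0. Mobp was the member with the lowest value, −0.13 ± 0.14, with GA-Camk2a libraries from 300 to 631 CPM around controls of 412 to 553 CPM. The mean of Mobp was thus higher in GA-Camk2a mice in cortex and lower in hippocampus, and neither difference passed.

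**Figure D2:**
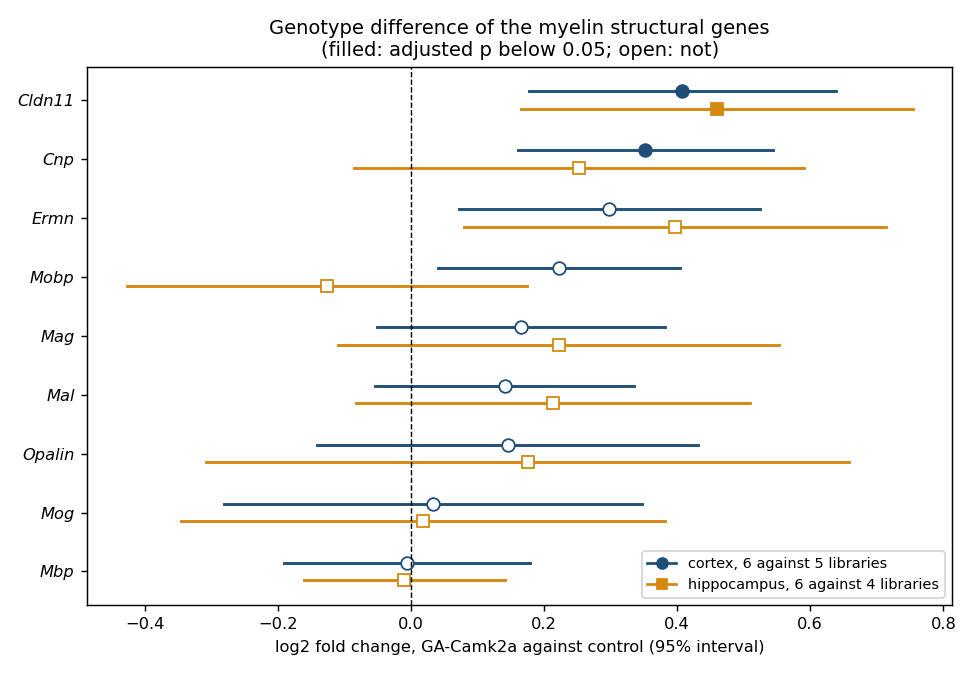
Log2 fold change of each gene between GA-Camk2a and control mice with its 95% interval, in cortex (blue circles) and hippocampus (orange squares), filled where the adjusted p was below 0.05. Cnp and Cldn11 are filled in cortex and Cldn11 in hippocampus, and Mbp and Mog sit at 0 in both tissues.

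The hippocampus of GA-Camk2a mouse 41 held the highest value of the whole series for 8 of the 9 genes. Opalin was at 153 CPM there and at 50.0 to 75.8 CPM in the other 5 GA-Camk2a hippocampi, Cnp at 470 against 224 to 330 CPM, and Mog at 93.4 against 41.9 to 63.0 CPM. Mbp was the exception, at 262 CPM in that library and 232 to 332 CPM in the others. Summed over the 9 genes, this library reached 2374 CPM, against a group mean of 1752 ± 368 CPM (n = 6) and a control mean of 1572 ± 169 CPM (n = 4). Without it, 5 of 9 log2 fold changes in hippocampus were above 0, their median was 0.09, no member passed (adjusted p of 0.0977 for Cldn11, edgeR) where 8.94% of all 15212 genes did, and Mog and Opalin turned to −0.15 and −0.08. Without it Cnp moved from 0.25 to 0.0854, Mag from 0.22 to 0.0971, Mal from 0.21 to 0.12, Ermn from 0.40 to 0.28 and Mobp from −0.13 to −0.23. The same library held 594 CPM of the 12 other oligodendrocyte markers, where the other 5 held 323 to 459 CPM, and 1847 CPM of choroid plexus markers, where they held 1980 to 55606 CPM. The part of tissue composition in these values was not tested. In cortex of mouse 41 Opalin was at 106 CPM, again the highest of its group, as were Mobp, Mag and Mog at 575, 153 and 73.5 CPM. Cldn11, Mbp, Mal, Ermn and Cnp, at 119, 315, 150, 69.6 and 378 CPM there, were not the highest.

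Genes for other parts of myelin were read from lists to place the 9 members, and on lists this short a few calls do not by themselves set a list apart from the 12.5% and 10.9% of all genes called. Of 25 tested genes of other sheath and axon-contact proteins, 7 were higher and 2 lower in GA-Camk2a cortex (median log2 fold change 0.13), and 2 were higher and 1 lower in hippocampus (median 0.20). Gsn, gelsolin, an actin-severing protein, was the one with the lowest adjusted p in both tissues. It rose from 75.7 to 120 CPM in cortex (log2 fold change 0.67 ± 0.13, adjusted p = 0.00118) and from 79.2 to 159 CPM in hippocampus (0.95 ± 0.13, adjusted p = 0.000242, edgeR). Evi2a, a transmembrane protein found in oligodendrocytes, rose by 0.50 ± 0.11 in cortex (adjusted p = 0.00345), and Sirt2, the tubulin deacetylase abundant in myelin, by 0.40 ± 0.10 (adjusted p = 0.0101). In hippocampus their values were 0.54 and 0.29, and neither passed.

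Omg, oligodendrocyte myelin glycoprotein, which neurons also express, was lower in both tissues. It fell by 0.32 ± 0.10 on the log2 scale in cortex (adjusted p = 0.0431) and by 0.41 ± 0.09 in hippocampus (adjusted p = 0.00601, edgeR). Of the sheath genes that did not pass, Ndrg1 had 0.32 in cortex and 0.49 in hippocampus, and Car2, carbonic anhydrase of oligodendrocytes, had 0.09 and 0.15.

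Among 9 tested genes of myelin galactolipid and very-long-chain lipid synthesis, 2 were higher in cortex and 1 in hippocampus, with none lower, against the same 12.5% and 10.9% of all genes in either direction. Cers2, the ceramide synthase for very long acyl chains, rose from 34.2 to 50.9 CPM in cortex (0.56 ± 0.12, adjusted p = 0.0023) and from 44.4 to 65.3 CPM in hippocampus (0.51 ± 0.13, adjusted p = 0.0215, edgeR). Elovl1, an elongase that supplies those chains, rose by 0.60 ± 0.14 in cortex (adjusted p = 0.00538) and had 0.31 in hippocampus. Ugt8a, which makes galactosylceramide, had −0.02 and 0.03, and Fa2h, which hydroxylates its fatty acid, had 0.22 and 0.08.

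Of 12 tested oligodendrocyte transcription factors, 1 passed in cortex and 2 in hippocampus, all higher, against 12.5% and 10.9% of all genes. Myrf, the activator of myelin genes, rose from 15.8 to 25.1 CPM in cortex (0.63 ± 0.16, adjusted p = 0.0116) and had 0.51 ± 0.17 in hippocampus (adjusted p = 0.0704, edgeR). Nkx6-2 rose by 0.82 ± 0.23 (adjusted p = 0.0328) and Zfp536 by 0.51 ± 0.13 (adjusted p = 0.0168) in hippocampus. Sox10, which oligodendrocytes of all stages express, had 0.39 in cortex and 0.32 in hippocampus without passing. Of the newly formed oligodendrocyte list, 8 genes were tested in cortex (median log2 fold change 0.22) and 9 in hippocampus (median 0.06). Only 1 was called in each tissue, Arpc1b, a subunit of the actin-branching Arp2/3 complex. It rose by 0.91 ± 0.18 in cortex (adjusted p = 0.00195) and 0.92 ± 0.14 in hippocampus (adjusted p = 0.000589, edgeR), so it does not stand for the list. None of 7 tested oligodendrocyte precursor markers was called in either tissue.

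Without mouse 41 the hippocampal values of these lists also moved. The median log2 fold change of the other sheath proteins went from 0.20 to 0.07, with 1 higher and 2 lower, and that of the transcription factors from 0.18 to 0.11, with 1 higher. That of the lipid synthesis genes went from 0.26 to 0.30, with 1 higher. In the same fit 8.94% of all genes were called. Gsn (0.89, adjusted p = 0.000694), Omg (−0.45, adjusted p = 0.00562), Cers2 (0.40, adjusted p = 0.0387), Zfp536 (0.41, adjusted p = 0.0372) and Arpc1b (0.87, adjusted p = 0.00194) still passed the edgeR test, and Nkx6-2 did not (0.72, adjusted p = 0.0794). The newly formed oligodendrocyte list then held 2 higher genes of 10 tested, Arpc1b and the growth factor gene Bmp4 (0.99, adjusted p = 0.0402). Its median was −0.01, and Enpp6 and Gpr17, which did not pass, had 0.01 and −0.11.

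**Figure D3:**
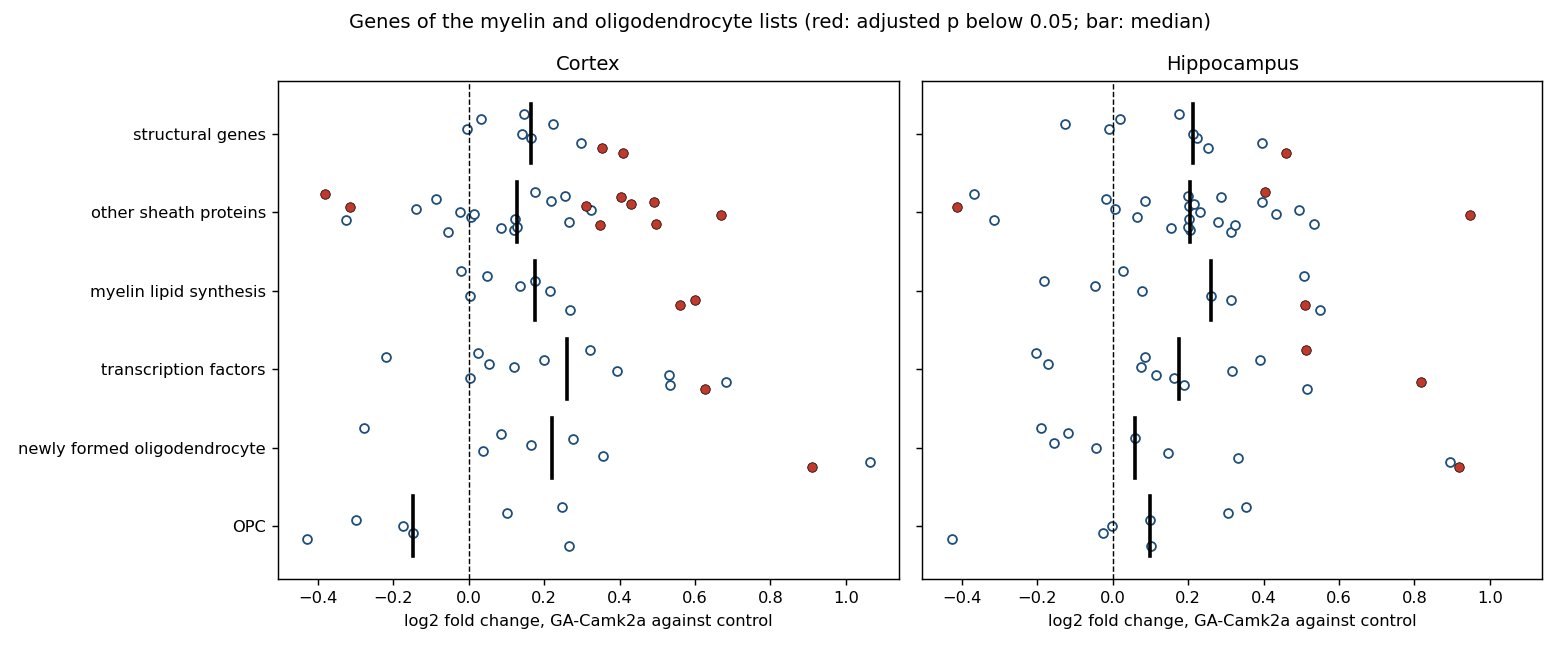
Log2 fold change between GA-Camk2a and control mice of each tested gene of 6 lists, with cortex on the left and hippocampus on the right, red where the adjusted p was below 0.05 and a bar at the list's median. The medians of the structural genes, 0.17 and 0.21, lie close to those of the other sheath proteins, 0.13 and 0.20, and OPC are oligodendrocyte precursor markers.

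Markers of other cells and regions moved between genotypes in the same libraries. Microglial markers summed to 450 ± 22.6 and 1290 ± 213 CPM in control and GA-Camk2a cortex, with 8 of 10 higher, and to 424 ± 40.7 and 1027 ± 155 CPM in hippocampus, with 7 of 10 higher. Of 8 astrocyte markers 5 were higher in each tissue. Excitatory neuron markers summed to 2041 ± 191 and 1422 ± 172 CPM in cortex and to 2417 ± 249 and 1234 ± 127 CPM in hippocampus. All 9 tested striatal markers were lower in GA-Camk2a cortex, where they summed to 280 to 641 CPM against 1001 to 1574 CPM in control cortex, while in hippocampus they summed to 202 to 312 and 205 to 257 CPM. The striatal sums of the cortex groups did not overlap, so a difference in dissection and the genotype cannot be told apart there. The 12 oligodendrocyte markers without a member summed to 303 ± 37.7 and 365 ± 39.8 CPM in cortex and to 319 ± 42.5 and 407 ± 104 CPM in hippocampus, where the GA-Camk2a mean was 369 ± 55.3 CPM (n = 5) without mouse 41. Markers of Schwann cells summed to 20.6 to 38.2 CPM over the 21 libraries. Choroid plexus markers ranged from 1821 to 32800 CPM in control and from 1847 to 55606 CPM in GA-Camk2a hippocampus. With their log2 sum as a further term in hippocampus, Cldn11 kept a log2 fold change of 0.46 and remained the single member called (adjusted p = 0.0278, edgeR). In that fit 1907 of all 14884 genes were called. Among 6 cortical markers, Rorb, a nuclear receptor of layer neurons, ranged from 103 to 5303 CPM in GA-Camk2a and from 86.6 to 1455 CPM in control hippocampus. The part of the other markers in the members' differences was not tested.

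Between tissues of control mice no member passed the edgeR test, where 16.3% of all 14435 genes did. Without adjustment 1 member had p below 0.05, and DESeq2 and limma-voom called none. Mal was the gene with the largest fitted difference, at 129, 119, 152 and 122 CPM in cortex and 150, 136, 173 and 169 CPM in hippocampus of controls 11, 20, 31 and 37. It was higher in hippocampus in each of these 4 mice, with a log2 difference, given as hippocampus over cortex, of 0.25 ± 0.10 (adjusted p = 0.11, edgeR), and it passed without the cortex of control 31 (adjusted p = 0.0453). Ermn had a fitted difference of 0.17 ± 0.11 (0.14 to 0.33 under the alternatives other than leaving out 1 library) and was also higher in hippocampus in 4 of 4 mice, by a mean within-mouse difference of 0.32, where that of Mal was 0.27. Mobp had 0.03 ± 0.10 and Mbp −0.17 ± 0.10, and the other 5 lay between those of Mbp and Mal.

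In GA-Camk2a mice, 1 member passed between tissues, Mobp, which was lower in hippocampus, against 33.2% of all 13098 genes. Its 6 cortex values in mice 16, 23, 30, 34, 35 and 41 were 551, 530, 453, 544, 463 and 575 CPM, and the hippocampus values of the same mice were 424, 394, 300, 489, 460 and 631 CPM. On the normalized log2 scale hippocampus was lower in 6 of 6 mice, including mouse 41, where the CPM was higher. The log2 difference was −0.33 ± 0.13 (adjusted p = 0.0499857, edgeR), at the threshold. With the mouse as a replicate block it was −0.34 (adjusted p = 0.011), and it passed in 6 of 12 alternatives other than leaving out 1 library. It did not pass with upper quartile normalization, with DESeq2 without covariates, without the batch term, after thinning, in batch 1 alone or in batch 2 alone (adjusted p of 0.0599, 0.0723, 0.0809, 0.160, 0.0574 and 0.606). Leaving out the cortex of mouse 16, 23, 34 or 41, or the hippocampus of mouse 16, 23, 30 or 35, also ended the call (adjusted p of 0.0628 to 0.152).

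Mal had the opposite sign in GA-Camk2a mice, at 0.31 ± 0.12 (adjusted p = 0.0615, edgeR), and was higher in hippocampus in 5 of 6 mice, mouse 30 being the exception. It passed without the hippocampus of that mouse (adjusted p = 0.00745) and without a filter on low counts (adjusted p = 0.0353). Ermn had 0.27 ± 0.13 (adjusted p = 0.132), and passed without the hippocampus of mouse 23 (adjusted p = 0.0464). Cnp had −0.19 ± 0.14 (adjusted p = 0.325, edgeR), between −0.32 and −0.10 when 1 library was left out, and passed only in the fit without the hippocampus of mouse 41 (−0.32, adjusted p = 0.0296). Under the other alternatives Cnp was at −0.32 to 0.0259 and kept its sign in 11 of 12 fits. Mbp had −0.17 ± 0.08 (adjusted p = 0.100, edgeR) and was lower in hippocampus in 6 of 6 GA-Camk2a and 3 of 4 control mice. In 5 of these 10 mice the tissues were in different batches. The lowest differences, −0.53, −0.48 and −0.36 in mice 23, 41 and 31, were of batch 1 cortex against batch 2 hippocampus, and the 1 rise, 0.16 in control 37, was of batch 2 cortex against batch 1 hippocampus. Mouse 16, with its tissues in the same batches as control 37, had −0.04. In the 5 mice with both tissues in 1 batch the Mbp difference was −0.25 to −0.04 in controls and −0.17 to −0.03 in GA-Camk2a mice. With the mouse as a replicate block Mbp passed without the batch term (−0.21, adjusted p = 0.049) and did not pass with it (−0.18, adjusted p = 0.0624).

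On the normalized log2 scale, the within-mouse tissue difference of Mobp had opposite signs in the 2 genotypes, but not in CPM. Hippocampus over cortex was 0.02 to 0.14 in 4 control mice and −0.65 to −0.08 in 6 GA-Camk2a mice. The values closest to 0 were 0.02 in control 20 and −0.08 in GA-Camk2a mice 35 and 41. In CPM, control 20 was lower in hippocampus (412 against 437) and mouse 41 higher (631 against 575). That scale took its TMM factors over all genes and all 21 libraries, unlike the fits. The fitted control difference of 0.03 had no stable sign, turning to −0.0211 with limma-voom and ranging from −0.0447 to 0.0966 without 1 library. The interaction of genotype and tissue was −0.37 ± 0.17 (unadjusted p = 0.0387), and it did not pass (adjusted p = 0.457, edgeR). No member's interaction passed, against 0.4% of all 14751 genes, and Mobp was the only one with an unadjusted p below 0.05. DESeq2 and limma-voom called none either. The interactions of the other 8 genes were between −0.12 and 0.08.

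**Figure D4:**
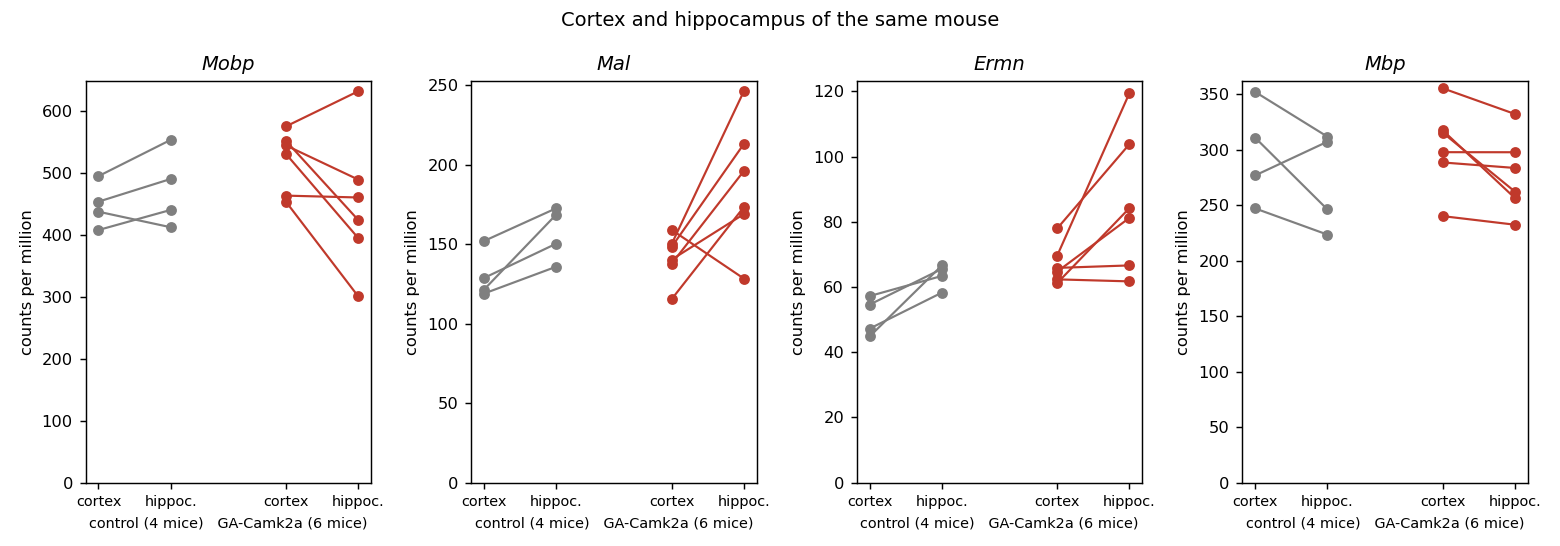
CPM (linear axis from 0) of Mobp, Mal, Ermn and Mbp in cortex and hippocampus of the same mouse, 4 control mice in grey and 6 GA-Camk2a mice in red, with a line for each mouse. The Mobp lines of 5 of the 6 GA-Camk2a mice fall, the Mal lines rise in 9 of the 10 mice, and the Mbp line of control 37 is the only one of its panel that rises.

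Most pairs of members varied together from library to library, and Mbp had the lowest correlation with the rest. Over the 36 pairs of genes, Pearson's r of TMM-normalized log2 CPM over the 21 libraries was between −0.26 and 0.74 (median 0.48), and after the mean of each of the 4 groups was removed it was between −0.11 and 0.84 (median 0.61). These are descriptions over libraries that in part share mice and batches and that differ in depth. Against the mean of the other members, Cnp had an r of 0.86, Mag 0.83, Opalin 0.71 and Cldn11 0.50, while Mbp had 0.03. Among the 28 pairs without Mbp, r was 0.10 (Cldn11 and Mog) to 0.74 with a median of 0.59, and in the 8 pairs with Mbp it was −0.26 to 0.24, so that the ranges overlapped. With the group means removed, these values were 0.92, 0.84, 0.72, 0.54 and 0.15.

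Mbp followed the batch in hippocampus. The 5 batch 1 libraries were at 284, 298, 307, 312 and 332 CPM and the 5 batch 2 libraries at 224, 232, 246, 256 and 262 CPM, so that the batches did not overlap and each held both genotypes. The batch term of Mbp was −0.33 ± 0.07 in hippocampus (adjusted p = 0.0197, edgeR), where 238 of 14884 genes passed for batch. In cortex it was −0.24 ± 0.09 (adjusted p = 0.282), and no other member's batch term passed in either tissue. Within batches, the Mbp difference between genotypes had no stable sign. From TMM-normalized log2 CPM it was −0.06 and −0.03 in cortex of batch 1 and batch 2, and −0.09 and −0.10 in hippocampus. From CPM as printed, without TMM factors, the cortex values were −0.02 and 0.01 and the hippocampus values −0.03 and 0.09, and edgeR on batch 2 alone gave 0.0026 and 0.032. The corresponding TMM-normalized differences were 0.36 and 0.21 for Cnp in cortex, 0.36 and 0.33 for Cldn11 in cortex, and 0.32 and 0.42 for Cldn11 in hippocampus, and they were 0.39 and 0.25, 0.40 and 0.37, and 0.39 and 0.61 from CPM as printed. What the labels mean by batch is not stated in them.

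The genes whose pattern was most like the mean of the 9 members, among 5018 other genes with an average log2 CPM of at least 5, included Plekhb1 (r = 0.82), Qdpr (0.82), Evi2a (0.80) and Pllp (0.80) over the 21 libraries. With group means removed they included Gltp (0.89), Trf, the transferrin gene (0.87), Plekhb1 (0.85) and Evi2a (0.85). Plekhb1, Evi2a and Pllp, plasmolipin, were also on the sheath protein list, and all 3 were higher in GA-Camk2a cortex (log2 fold changes of 0.31, 0.50 and 0.43).

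**Figure D5:**
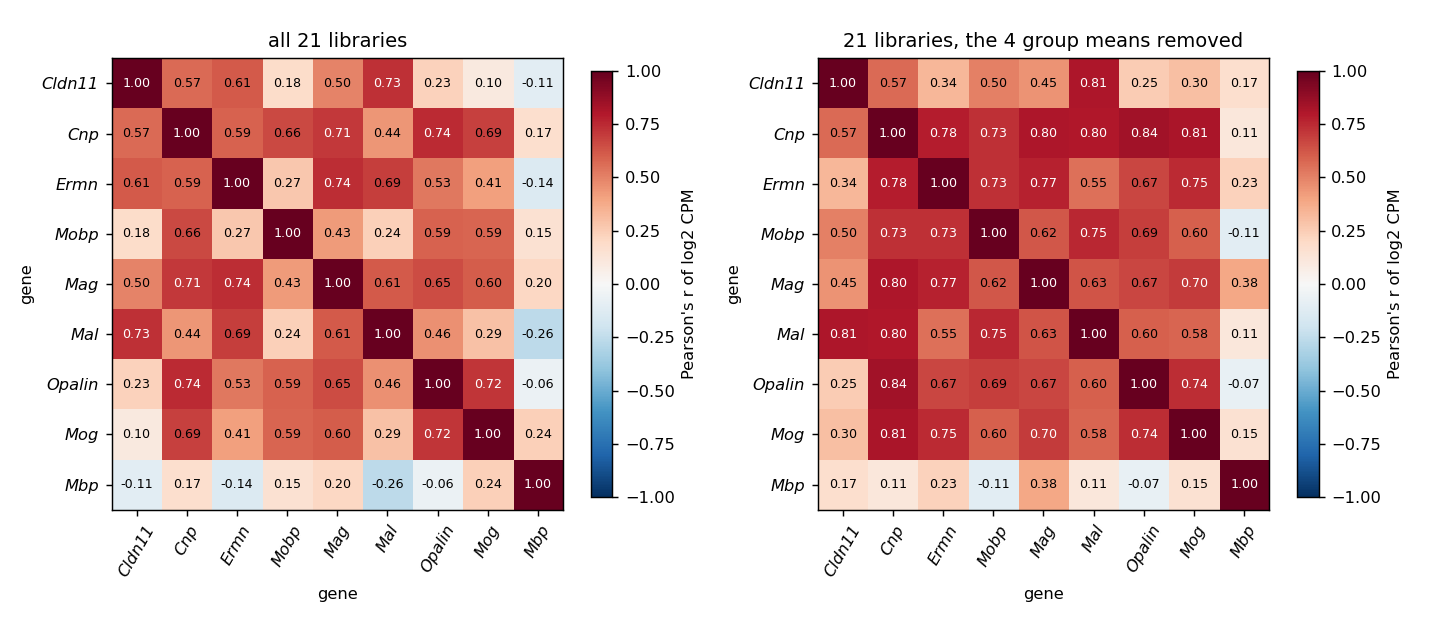
Pearson's r of TMM-normalized log2 CPM between each pair of the 9 genes, over the 21 libraries on the left and with the 4 group means removed on the right, on a colour scale from −1 to 1. The Mbp row and column stay pale on both sides, while the 28 pairs of the other 8 genes are all positive, with medians of 0.59 and 0.68.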

How the data were processed

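Prime-seq libraries of 21 tissue samples were used, in 2 batches named in the labels. The deposited file holds raw counts per gene, which the authors made by demultiplexing, zUMIs and alignment to GRCm39; the submitters' processing notes also name FastQC 0.11.8, cutadapt 1.12, STAR and DESeq2 1.44. Whether counts are of reads or of molecules, the annotation and the use of strand are not given in the sources used here. Symbols were matched on Ensembl numbers through GENCODE names of GRCm38 for 43308 of 64361 genes. CPM were taken over all gene counts of a library. Normalized log2 CPM used TMM factors over all genes and all 21 libraries, before any filter. Each fit took its own TMM factors within its comparison, after the filter, so the 2 scales can differ. Each of the 5 comparisons was fitted with edgeR 4.0.16 (R 4.3.3) on genes kept by filterByExpr (minimum count 10), with TMM factors, batch as a term, the quasi-likelihood test and Benjamini-Hochberg adjustment over all genes tested, at 0.05. All 9 members passed the filter in each comparison. Alternatives were DESeq2 1.42.0, limma 3.58.1 voom with quality weights, other normalizations, no filter, no batch term, thinning, single batches, a mouse block and each library left out. The fit was tested on simulated data.

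Tissues of the same mouse come from the same animal. Deviations of both tissues from their group means correlated with r of 0.258 to 0.385 in the 5 mice with both libraries in 1 batch and −0.185 to 0.003 in the 5 others. The labels name no cultures or litters. P-values between genotypes within a tissue measure the spread between these mice, with litters not separated. The main fits between tissues and of the interaction had no mouse block and treated the 2 libraries of a mouse as independent. Their p-values therefore do not measure the spread between mice, and the mouse block was an alternative. The members and the lists were chosen with earlier results of these data known. Named genes of each list were up to 4 called genes with the lowest adjusted p and 1 or 2 that were not called, and genes like the members were the highest 5 by r. Results of a gene that this rule would name are not reported here.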

Additional observations from a re-analysis of the deposited data

Results flagged for a closer look

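Of 36 sets of values (9 genes in 4 groups), 2 held a library far from the others by Dixon's gap criterion, which chance gives in about 1 group of 20. Opalin was at 106 CPM in cortex of GA-Camk2a mouse 41, where the next highest library of that group was at 76.0 CPM. In hippocampus of the same mouse it was at 152.8 CPM, and the next highest was at 75.8 CPM. The cause was not tested.

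On the normalized log2 scale, the tissue difference of Mobp had one sign in every control mouse and the other in every GA-Camk2a mouse, whereas in CPM control 20 and GA-Camk2a mouse 41 went the other way. The log2 difference, hippocampus over cortex, averaged 0.08 in 4 control mice and −0.34 in 6 GA-Camk2a mice. The fitted control difference had no stable sign (−0.0447 to 0.0966 without 1 library). The test between genotypes, the interaction term of edgeR, gave −0.37 ± 0.17 and did not pass (adjusted p = 0.457, and 0.257 to 0.977 over the other fits on all libraries or on 1 batch).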

How the results depend on the processing

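Over the 9 members and 5 comparisons, the sign was kept in 468 of 513 fits of the alternatives that leave out no single library, and in 500 of 567 fits without 1 library. The 45 and 67 reversals were all of values that did not pass. The called values passed in 29 of 43 and 27 of 44 of these fits. In cortex, 2 members were called, and 1 without a filter (Cldn11, with Cnp lost) or after thinning (Cnp, with Cldn11 lost), 0 in batch 1 alone or batch 2 alone, and 1 to 3 without 1 library. In hippocampus, 1 was called, and 0 without the batch term or in batch 1 alone, and 0 to 2 without 1 library. In control mice, 0 were called between tissues and 0 to 1 without 1 library. In GA-Camk2a mice, 1 was called, and 0 with upper quartile normalization, with DESeq2 without covariates, without the batch term, after thinning or in either batch alone, 2 without a filter, 2 with the mouse as a replicate block and no batch term, and 0 to 2 without 1 library. With the mouse as a replicate block and batch, Mobp had −0.34 there (adjusted p = 0.011) and no call of a member changed, while the block without batch added Mbp (−0.21, adjusted p = 0.049). No member's interaction was called under any alternative.

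In cortex, Mbp (−0.01) turned to 0.0226 with upper quartile normalization, 0.0116 with DESeq2 without covariates, 0.0092 without the batch term, 0.0178 after thinning and 0.0026 in batch 2 alone. Mog (0.03) turned to −0.0425 with voom and −0.22 in batch 2 alone, and Mag to −0.12 in batch 2 alone. In hippocampus, Mbp turned to 0.006 with upper quartile normalization and 0.032 in batch 2 alone, Mog to −0.0558 without a filter, −0.11 after thinning and −0.13 in batch 1 alone, and Opalin to −0.0521 in batch 1 alone. Mobp between tissues of control mice turned to −0.0211 with voom. Without 1 library, the ranges were −0.0435 to 0.0479 for Mbp, −0.0726 to 0.177 for Mog and −0.0071 to 0.225 for Opalin in cortex, −0.0465 to 0.0072, −0.149 to 0.0989 and −0.0766 to 0.283 in hippocampus, and −0.0447 to 0.0966 for Mobp between control tissues. The interaction of Cnp (−0.12) turned to 0.183 in batch 2 alone and that of Cldn11 (0.03) to −0.0505 in batch 1 alone, and without 1 library they ranged from −0.236 to 0.0053 and from −0.0248 to 0.16. The causes were not tested.

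Over all genes, 1635 were called in cortex (230 to 1626 under the other alternatives), 1628 in hippocampus (115 to 1907), 2351 between control tissues (1214 to 3416), 4350 between GA-Camk2a tissues (1353 to 4587) and 59 in the interaction (0 to 159). Without 1 library these counts were 1038 to 1526, 1038 to 1831, 1580 to 3168, 3668 to 4262 and 22 to 66. They moved by over 1.5 times without control 31 in cortex (1038), without control 20 (1082) or control 31 (1038) in hippocampus, and in the interaction without cortex of control 11, 31 or 37 or GA-Camk2a mouse 23 or 35, or hippocampus of control 11, 31 or 37 or GA-Camk2a mouse 23 (22 to 39). The choroid plexus term was chosen after seeing the data. Of the interaction calls, 37.3% were higher, and 49.3% with another normalization.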
